A study of Rattus norvegicus with 46 samples.

Results

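Tissue inhibitors of metalloproteinases Timp1, Timp2, Timp3 and Timp4, the serpin Serpine2 and the alpha-2-macroglobulin gene A2m were followed across injured and uninjured rat shoulder tissue. The 6 genes were taken by symbol, from 23747 symbols listed in the 11 gene tables deposited with the series, and the rule that picks them holds no threshold. They were chosen by name with the fold changes of these same 11 tables already known, so the fold changes and p-values below describe the 6 genes in these libraries and are not independent evidence for them. Serpine2 was the only serpin among them.

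The series holds 46 bulk RNA-seq libraries of poly-A RNA from Rattus norvegicus in 8 groups. The supraspinatus, a rotator cuff tendon, was cut (tenotomy), and the subacromial bursa, a thin gliding tissue that lies over the tendon, was either taken out (bursectomy) or kept. Tissue was collected 3 or 14 days after the operation, and the series asks what the bursa does in the tendon's response to injury. Bursa was sequenced on day 3 and on day 14 after tenotomy (n = 6 each), in animals that kept it, and in control rats without an operation (n = 5). Tendon was sequenced on day 3 and on day 14 after tenotomy with the bursa removed and with the bursa intact (n = 6 in each of the 4 groups), and in control rats (n = 5). Tenotomy was common to all 36 injured libraries, so bursa removal was only ever tested on top of a cut tendon. Strain, sex and age are not given, nor is the rat from which each library came. The series text also speaks of tendons controlled within a rat, and which tendons these were is not given. The p-values therefore measure only the spread between libraries, part of which may be technical.

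Timps are secreted proteins that block the active site of matrix metalloproteinases, the enzymes that cut collagen and other matrix proteins during tissue repair. Timp3 is held in the matrix and also blocks ADAM and ADAMTS proteases, while Timp2 forms a complex with Mmp14 on the cell surface through which pro-Mmp2 is activated. Serpine2, also called protease nexin-1, traps thrombin, urokinase and other serine proteases, and A2m is a large secreted cage that traps proteases of all classes, is cleared by the receptor Lrp1 and is a classical acute-phase protein in the rat.

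Library totals ran between 12.4 M and 69.9 M estimated counts. The deepest library was replicate 6 of injured bursa at day 14, and the next deepest held 22.6 M. Control bursae 1 and 2 stood apart, with 48.9% and 53.5% of counts on mitochondrial transcripts, against 13.33% to 16.98% in the other 3 control bursae. In these 2 libraries Timp1 was at 8.86 and 8.33 CPM (the count as a share of the library's scaled total), against 24.7 to 37.3 CPM in the other control bursae, and Timp2 was at 128 and 114 CPM, against 371 to 515 CPM. Serpine2 was also lower there, at 66.9 and 66.7 CPM, against 99.8 to 124 CPM, while Timp3 and Timp4 were not lower in both. The bursa results that these 2 libraries moved most are also given without them. The tissue labels were checked against marker genes: the summed level of 10 tendon cell markers was 96.0 to 3225 CPM in control bursae and 4462 to 10392 CPM in control tendons. Control bursae held 11056 to 30376 CPM of 7 adipocyte markers, against 713 to 1138 CPM in control tendons. Skeletal muscle markers (8 genes) summed to 524 to 19069 CPM in control bursae and 36060 to 58127 CPM in control tendons. The 6 markers of the synovial lining, which should mark a bursa, summed to only 286 to 866 CPM in control bursae, below the 1732 to 2918 CPM of control tendons.

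The promoter windows of Timp1 and Timp3 are shown because Timp1 rose and Timp3 fell at day 3 in both tissues. Each is the 250 bases before the annotated gene start in RefSeq, GRCr8 assembly, 5′ to 3′ on the gene's strand. In capitals are TGAGTAA, the form of AP-1 element for which the mouse and human Timp1 promoters are known, and AGGAAG, an Ets family core.
Timp1, chrX:3771123-3771372, minus strand: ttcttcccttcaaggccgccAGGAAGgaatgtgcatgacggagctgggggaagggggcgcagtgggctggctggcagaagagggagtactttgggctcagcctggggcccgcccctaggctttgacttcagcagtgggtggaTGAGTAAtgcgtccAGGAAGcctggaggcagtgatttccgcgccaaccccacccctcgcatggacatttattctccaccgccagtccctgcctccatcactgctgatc
Timp3, chr7:19459559-19459808, minus strand: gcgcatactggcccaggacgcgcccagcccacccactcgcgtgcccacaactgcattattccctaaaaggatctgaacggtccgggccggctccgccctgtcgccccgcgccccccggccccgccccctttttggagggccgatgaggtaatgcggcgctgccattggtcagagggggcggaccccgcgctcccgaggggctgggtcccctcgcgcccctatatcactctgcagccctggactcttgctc
Counted back from the gene start, the Timp1 window held TGAGTAA once, at -108, and AGGAAG at -230 and -94. The Timp3 window held neither on either strand. TGAGTAA was present in 2.38% of the 33469 rat promoter windows of this length and AGGAAG in 29.5%. The consensus AP-1 element TGANTCA (6.34% of windows) and the STAT element TTCNNNGAA (7.67%) were in none of the 5 members that had an entry, which were the 4 Timps and Serpine2. Timp4 and Serpine2 each held AGGAAG once. G and C made up 61.2% of the Timp1 window and 69.6% of the Timp3 window, against a median of 51.2% over all windows. A match of letters is a description of the window and says nothing about binding.

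Timp1, an inhibitor that cells release in large amounts in inflamed and healing tissue, rose in day 3 bursa and in all 4 injured tendon groups, and did not pass the test in day 14 bursa. In bursa it had 8.86, 8.33, 24.7, 35.5 and 37.3 CPM in the 5 controls, 110.3 to 214 CPM (median 184) at day 3 and 33.0 to 50.4 CPM (median 46.4) at day 14. All 6 day 3 bursae lay above every control, and 5 of 6 day 14 bursae did. In tendon it had 47.5, 50.5, 42.2, 47.3 and 52.5 CPM in the 5 controls. On day 3 it had 240.3 to 634 CPM (median 446) with the bursa removed and 282 to 556 CPM (median 375) with the bursa intact. By day 14 it had 156 to 243 CPM (median 212) with the bursa removed and 152 to 236 CPM (median 180.3) with the bursa intact. Every injured tendon library was above every control tendon. In order of mean level the day 3 tendons came first, the day 14 tendons and day 3 bursae next, then control tendon and day 14 bursa, and control bursa last. Neighbours that did not differ beyond the larger of their SDs were the removed and intact tendons on each day, intact day 14 tendon and day 3 bursa, and control tendon and day 14 bursa.

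Differences were tested with edgeR's quasi-likelihood test on the whole table, with Benjamini-Hochberg adjustment over all features of a fit and a call at an adjusted p under 0.05. All fold changes are on the log2 scale, as injured over control of the same tissue unless another pair is named. For Timp1 the log2 fold change was 2.97 ± 0.36 (SE) in day 3 bursa (adjusted p = 8.3e-06), and 0.95 ± 0.33 in day 14 bursa, which was not called (adjusted p = 0.060). In tendon it was 3.18 ± 0.21 with the bursa removed and 3.05 ± 0.21 with the bursa intact at day 3 (adjusted p = 6.7e-13 and 1.2e-12). At day 14 it was 2.08 ± 0.20 with the bursa removed and 1.93 ± 0.20 with the bursa intact (adjusted p = 1.1e-09 and 3.1e-09). Between the days Timp1 fell in all 3 injured tissues, by 2.02 ± 0.32 in bursa, by 1.10 ± 0.18 in tendon with the bursa removed and by 1.12 ± 0.18 in tendon with the bursa intact. Without control bursae 1 and 2 the day 3 bursa value was 2.49 (adjusted p = 9.5e-07). The day 14 bursa result turned on single controls: without control bursa 4 the log2 fold change was 1.16 (adjusted p = 0.029) and without control bursa 5 it was 1.19 (adjusted p = 0.028), whereas without control bursae 1 and 2 it was 0.46 (adjusted p = 0.12). Markers of monocytes and macrophages moved with Timp1. The 12 measured markers summed to 2984 to 4231 CPM in day 3 bursae, against 392 to 1603 CPM in control bursae. At day 14, when Timp1 was not called, they summed to 1699 to 3019 CPM in bursa, above every control. In tendon they summed to 2606 to 7054 CPM at day 3 and 1895 to 3288 CPM at day 14, against 737 to 2080 CPM in control tendons, and their part in the Timp1 differences was not tested. All 5 measured markers of dividing cells rose in each comparison of injured tissue with control. Their sum at day 3 was 125 to 326 CPM in bursa and 227 to 416 CPM in tendon, against at most 11.5 CPM in control bursae and 13.8 CPM in control tendons. Of 6 fibroblast markers 5 rose at day 3 in bursa and in each tendon arm, and 1 fell in each tendon arm. Neutrophil markers rose at day 3 too, 2 of 3 in bursa and 3 of 3 in tendon. Over all features, the share that rose was 22.3% in day 3 bursa, 9.44% in day 14 bursa and 30.9% to 34% in tendon.

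**Figure D1:**
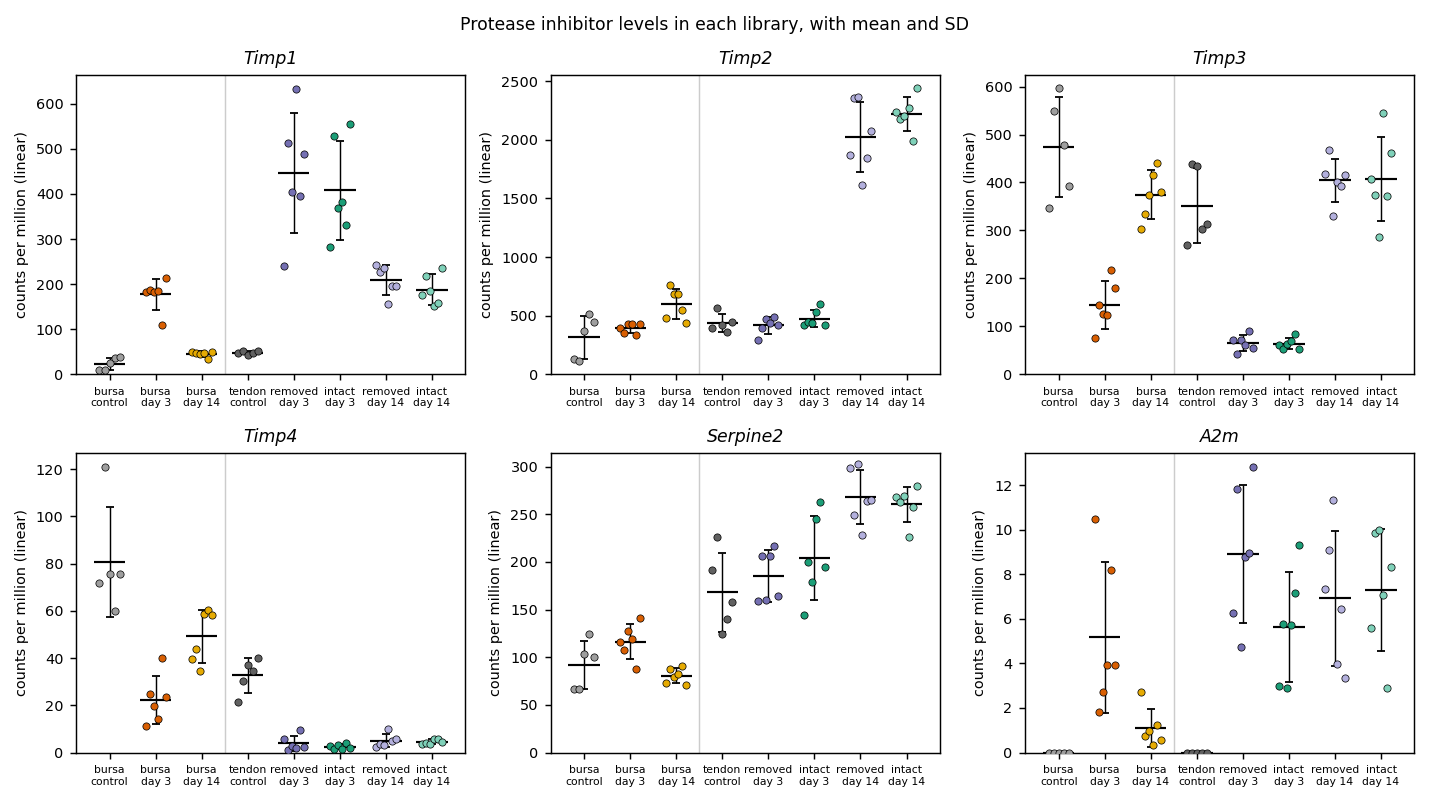
Level of each of the 6 genes in each of the 46 libraries, in CPM on linear axes, with 1 point per library, a bar at the group mean and an error bar of 1 SD (n = 5 in control groups, n = 6 in the others). Timp1 is highest at day 3 in each tissue and Timp2 at day 14, Timp3 dips at day 3 in both tissues, and A2m is at 0 in all 10 controls.

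Timp2, the partner of Mmp14 in the activation of pro-Mmp2, rose over control in day 14 tendon, in both arms, and in no other comparison with control. In tendon it had 394, 565, 421, 363 and 444 CPM in the 5 controls. Day 3 tendons had 292 to 489 CPM (median 427) with the bursa removed and 417 to 598 CPM (median 441) with the bursa intact, ranges that overlapped the controls. On day 14 it had 1618 to 2363 CPM (median 1975) with the bursa removed and 1985 to 2440.3 CPM (median 2222) with the bursa intact. The 12 day 14 tendons were all above the other 34 libraries. The log2 fold change at day 14 was 2.17 ± 0.14 with the bursa removed and 2.30 ± 0.14 with the bursa intact (adjusted p = 3.9e-13 and 1.4e-13). At day 3 it was -0.10 ± 0.13 with the bursa removed and 0.08 ± 0.13 with the bursa intact (adjusted p = 0.52 and 0.60). Between day 3 and day 14 Timp2 rose by 2.27 ± 0.13 with the bursa removed and by 2.22 ± 0.13 with the bursa intact (adjusted p = 4.1e-13 and 7.4e-13).

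In bursa Timp2 had 128, 114, 371, 515 and 449 CPM in the controls, 334 to 432 CPM (median 410.4) at day 3 and 435 to 761 CPM (median 618) at day 14. Both injured groups overlapped the controls, whose own range was wide. The log2 fold change was 0.35 ± 0.32 at day 3 (adjusted p = 0.39) and 0.91 ± 0.32 at day 14 (adjusted p = 0.066). Without control bursae 1 and 2 these values were -0.12 and 0.42 (adjusted p = 0.58 and 0.12). All 6 day 14 bursae were above all 6 day 3 bursae, with a difference of 0.55 ± 0.30 that was not called (adjusted p = 0.21). In the order of Timp2 means, the neighbours below the day 14 tendons (day 14 bursa, intact day 3 tendon, control tendon, removed day 3 tendon, day 3 bursa and control bursa) each differed from the next by less than the larger SD.

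Timp3, the Timp that stays bound to matrix, was lower than control at day 3 in both tissues and was not called different from control at day 14 in either. In bursa it had 347, 549.9, 597, 479 and 393 CPM in the controls, 75.4 to 218 CPM (median 135) at day 3 and 303 to 439.5 CPM (median 378) at day 14. Every day 3 bursa was below every control and below every day 14 bursa, while 4 of 6 day 14 bursae lay within the control range. In tendon it had 269, 439, 434, 304 and 314 CPM in the controls. At day 3 the level was 42.6 to 89.2 CPM (median 67.0) with the bursa removed and 52.6 to 83.8 CPM (median 61.8) with the bursa intact. At day 14 the level was 330.0 to 468 CPM (median 408) with the bursa removed and 287 to 544 CPM (median 391) with the bursa intact. All 12 day 3 tendons were below all controls and all day 14 tendons, and the day 14 and control ranges overlapped.

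The log2 fold change of Timp3 at day 3 was -1.68 ± 0.22 in bursa (adjusted p = 1.6e-05), -2.46 ± 0.17 in tendon with the bursa removed (adjusted p = 3.0e-12) and -2.499 ± 0.17 in tendon with the bursa intact (adjusted p = 1.9e-12). At day 14 it was -0.35 ± 0.21 in bursa, 0.16 ± 0.17 in tendon with the bursa removed and 0.17 ± 0.17 in tendon with the bursa intact, none of them called (adjusted p = 0.26, 0.42 and 0.37). Between day 3 and day 14 Timp3 rose by 1.33 ± 0.21 in bursa, 2.62 ± 0.17 in tendon with the bursa removed and 2.67 ± 0.17 in tendon with the bursa intact (adjusted p = 3.4e-04, 4.5e-12 and 4.7e-12). In the order of its means the controls and day 14 groups formed a run of 5 whose neighbours did not differ beyond their spread. Day 3 bursa came below that run and the removed and intact day 3 tendons last, not separated from each other.

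Timp4, which is best known from heart, muscle and fat, fell in day 3 bursa and in all 4 injured tendon groups. In bursa it had 71.9, 121, 75.6, 60.1 and 75.5 CPM in the controls, 11.4 to 40.1 CPM (median 21.7) at day 3 and 34.7 to 60.3 CPM (median 51.0) at day 14. All day 3 bursae and 5 of 6 day 14 bursae were below all controls. In tendon it had 21.2, 30.4, 37.3, 34.4 and 39.9 CPM in the controls. On day 3 it had 1.28 to 9.44 CPM (median 2.53) with the bursa removed and 1.34 to 3.87 CPM (median 2.33) with the bursa intact. Day 14 tendons had 2.53 to 10.2 CPM (median 4.34) with the bursa removed and 3.47 to 5.89 CPM (median 4.203) with the bursa intact. No injured tendon reached the lowest control tendon on either day. The order of means was control bursa, day 14 bursa, control tendon and day 3 bursa, each beyond the spread of the next. The 4 injured tendon groups followed, and neighbours among them were not separated. With the bursa intact, which are not neighbours in this order, day 14 (4.54 ± 1.08 CPM) and day 3 (2.44 ± 0.99 CPM) differed by more than the larger SD.

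The log2 fold change of Timp4 was -1.83 ± 0.28 in day 3 bursa (adjusted p = 7.3e-05) and -0.73 ± 0.27 in day 14 bursa (adjusted p = 0.076, not called). In tendon at day 3 it was -3.09 ± 0.39 with the bursa removed and -3.77 ± 0.41 with the bursa intact (adjusted p = 1.6e-07 and 7.9e-09). At day 14 it was -2.72 ± 0.38 with the bursa removed and -2.89 ± 0.39 with the bursa intact (adjusted p = 7.8e-07 and 3.3e-07). Between the days Timp4 rose in bursa by 1.10 ± 0.26 (adjusted p = 0.0072), while the differences in tendon, 0.37 ± 0.37 with the bursa removed and 0.88 ± 0.39 with the bursa intact, were not called (adjusted p = 0.45 and 0.067). Without replicate 5 of the day 3 tendons the tendon differences were 0.86 and 1.06 and passed (adjusted p = 0.046 and 0.038).

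Markers of fat fell with Timp4 in both tissues, and markers of muscle did so in tendon. The summed level of the 7 adipocyte markers was 2800 to 7628 CPM in day 3 bursae, 9461 to 14039 CPM in day 14 bursae and 11056 to 30376 CPM in control bursae. In tendon the adipocyte sum was 168 to 703 CPM in the 24 injured libraries and 713 to 1138 CPM in controls. All 7 adipocyte markers fell in day 3 bursa and in both day 14 tendon comparisons, and 4 and 6 of 7 in day 3 tendon with the bursa removed and intact. The 8 skeletal muscle markers all fell in each of the 4 tendon comparisons with control, to a sum of at most 23308 CPM in any injured tendon, against 36060 to 58127 CPM in control tendons. In bursa the muscle markers summed to 11.3 to 7823 CPM at day 3 and 1443 to 9884 CPM at day 14, against 524 to 19069 CPM in controls, and 1 of 8 was called lower at day 3 and 0 at day 14. Schwann cell markers also fell in day 3 bursa (5 of 6, with 1 higher), as did smooth muscle and pericyte markers (5 of 7, with 1 higher). In day 3 tendon 4 of 6 Schwann cell markers fell with the bursa removed and 5 of 6 with it intact, with 1 higher in each arm. Of all features, 24.2% fell in day 3 bursa and 32.2% to 33.3% in the 4 tendon comparisons with control. With the mean muscle level as a covariate, the log2 fold change of Timp4 with the bursa removed was -1.75 at day 3 and -1.71 at day 14 (adjusted p = 0.026 and 0.0067). With the bursa intact it was -2.20 at day 3 and -1.52 at day 14 (adjusted p = 0.013 and 0.049). The same covariate left the tendon fold changes of Timp1 positive but smaller, at 2.15 and 1.27 with the bursa removed on days 3 and 14 and at 1.88 and 0.95 with the bursa intact, all called, and it made Timp2 with the bursa removed lower than control at day 3 (-0.55, adjusted p = 0.040). The muscle sums of control and injured tendons did not overlap, so muscle level and injury cannot be told apart with this covariate. The part of the adipocyte, Schwann cell and smooth muscle markers in these differences was not tested. In bulk tissue, fewer cells of a type and less RNA per cell cannot be told apart.

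**Figure D2:**
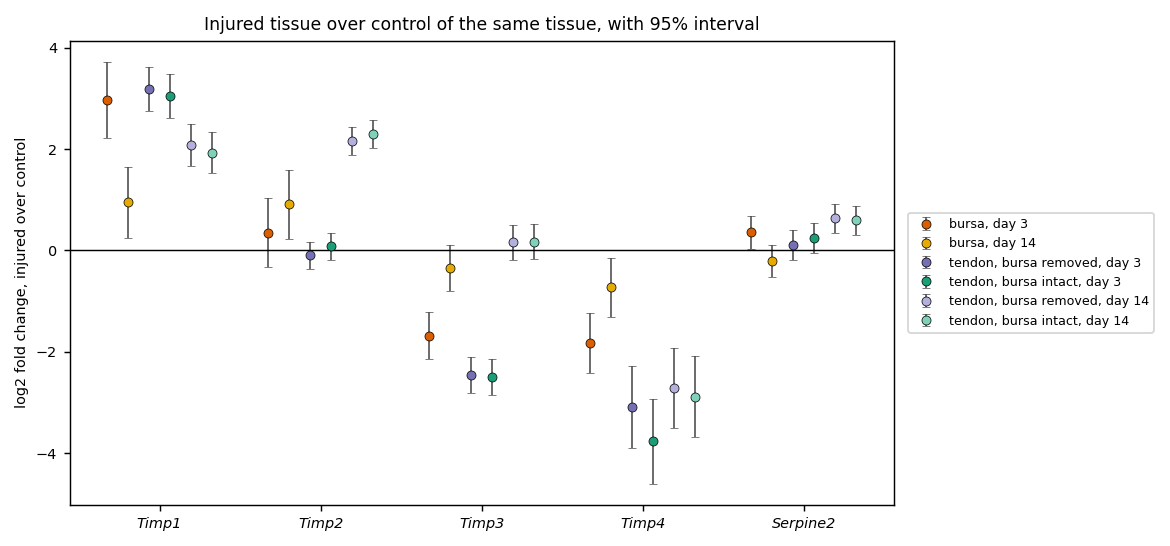
Log2 fold change of 5 genes, injured tissue over control of the same tissue, with 95% intervals from edgeR, for bursa on days 3 and 14 and for tendon with the bursa removed or intact on each day. The estimates of Timp1 lie above 0 and those of Timp4 below 0 throughout, Timp2 is above 2 in tendon at day 14, and Timp3 is farthest below 0 at day 3; A2m is left out because its controls had no counts.

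Serpine2, the thrombin and urokinase inhibitor, rose over control in day 14 tendon, in both arms, and passed no other test against control. In tendon it had 192, 227, 124, 140.1 and 158 CPM in the controls. Day 3 tendons had 159 to 217 CPM (median 185) with the bursa removed and 144 to 263 CPM (median 197) with the bursa intact. By day 14 the level was 228 to 303 CPM (median 265) with the bursa removed and 226 to 279.7 CPM (median 265) with the bursa intact. The day 3 tendons overlapped the controls, while 6 of 6 removed and 5 of 6 intact day 14 tendons lay above all controls. The log2 fold change was 0.11 ± 0.14 and 0.24 ± 0.14 at day 3 with the bursa removed and intact (adjusted p = 0.51 and 0.13), and 0.63 ± 0.14 and 0.59 ± 0.14 at day 14 (adjusted p = 3.4e-04 and 6.3e-04). With the muscle level as a covariate the day 14 values were 0.43 and 0.35 and were no longer called (adjusted p = 0.10 and 0.27). With that covariate the features called fell from 10677 to 5980 with the bursa removed and from 10850 to 4855 with it intact. Muscle level and injury cannot be told apart in these tendons. Between day 3 and day 14 Serpine2 rose by 0.52 ± 0.13 with the bursa removed (adjusted p = 0.0023) and by 0.35 ± 0.13 with the bursa intact (adjusted p = 0.037). The intact value lost its call when any of 6 libraries was left out, among them day 3 replicate 1, without which it was 0.27 (adjusted p = 0.11).

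In bursa Serpine2 had 66.9, 66.7, 103, 124 and 99.8 CPM in the controls, 87.5 to 141 CPM (median 117) at day 3 and 70.8 to 90.5 CPM (median 80.7) at day 14. Both injured groups overlapped the controls. The log2 fold change was 0.36 ± 0.15 at day 3 (adjusted p = 0.063) and -0.21 ± 0.15 at day 14 (adjusted p = 0.35), and from day 3 to day 14 Serpine2 fell by 0.57 ± 0.15 (adjusted p = 0.010). Without control bursae 1 and 2 the 2 control comparisons were 0.14 (adjusted p = 0.40) and -0.44 (adjusted p = 0.030). Without control bursa 4 the day 3 value was 0.49 (adjusted p = 0.012), and without day 3 bursa 5 it was 0.43 (adjusted p = 0.029). In the order of means the 2 day 14 tendon groups were not separated and lay above all others. Day 3 tendons and control tendon followed without separation. The 3 bursa groups came last, in the order day 3, control and day 14, and neighbours among them were not separated. Day 3 and day 14 bursa were not neighbours in this order, and the fall between them was called, as given above.

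A2m, the broad protease trap, was absent from the counts of all 10 control libraries and present in all 36 injured ones, where the lowest count was 9. It had 1.80 to 10.5 CPM (median 3.93) in day 3 bursae and 0.355 to 2.70 CPM (median 0.857) in day 14 bursae. In tendon at day 3 it had 4.76 to 12.8 CPM (median 8.87) with the bursa removed and 2.89 to 9.32 CPM (median 5.74) with the bursa intact. By day 14 it had 3.35 to 11.3 CPM (median 6.88) with the bursa removed and 2.88 to 9.997 CPM (median 7.69) with the bursa intact. All injured libraries lay above all controls, and the lowest were in day 14 bursae. A count of 0 allows up to 3 counts per library, which was 0.126 to 0.284 CPM in control bursae and 0.183 to 0.337 CPM in control tendons, for counting error only.

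Set against the mean of that floor, the mean of A2m was at least 26.4-fold higher in day 3 bursa and at least 5.59-fold higher in day 14 bursa. These bounds were 35.5-fold and 7.51-fold when the floor was taken from control bursae 3 to 5 alone. In tendon the mean was at least 36.3-fold higher with the bursa removed and at least 23.0-fold higher with the bursa intact at day 3. At day 14 the tendon bounds were 28.2-fold with the bursa removed and 29.7-fold with the bursa intact. These bounds on means leave out the spread of the injured libraries. The lowest injured library over the highest floor was 6.34-fold in day 3 bursa, 1.25-fold in day 14 bursa and 8.54-fold to 14.1-fold in the tendon groups. All 6 comparisons were called by edgeR (adjusted p = 2.6e-05 and 0.0022 in bursa at days 3 and 14, and at most 4.7e-09 in tendon). With no counts in any control, A2m passed the filter on low counts only through the injured groups. These calls are therefore not separate support for the bounds. From day 3 to day 14 A2m fell in bursa by 2.32 ± 0.55 (adjusted p = 0.010), and 5 of 6 day 14 bursae were below all day 3 bursae. In tendon the same difference was -0.38 ± 0.34 with the bursa removed and 0.37 ± 0.34 with the bursa intact (adjusted p = 0.39 and 0.40). Among the 5 injured groups other than day 14 bursa, neighbours in the order of A2m means were not separated.

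Liver is the usual source of plasma A2m in the rat. Of 6 hepatocyte markers only Alb had a matched transcript. Alb was at 13.03 to 128 CPM in day 3 bursae, 72.9 to 148 CPM in day 14 bursae and 102 to 689 CPM in control bursae, and at most 1.37 CPM in injured tendons against at most 3.65 CPM in control tendons. A2m was at 0 in the control bursae. The part of liver RNA or of plasma in the A2m counts was not tested.

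Counted by comparison, 4 of the 6 members were called in day 3 bursa against control, Timp1 and A2m higher and Timp3 and Timp4 lower, where 46.6% of the 16226 features tested were called (22.3% higher and 24.2% lower). In day 14 bursa 1 member was called, A2m, against 16.5% of features (9.44% higher and 7.02% lower). Between day 14 and day 3 bursa 5 of 6 were called, against 21.9% of features: Timp3 and Timp4 were higher (9.6% of features were) and Timp1, Serpine2 and A2m lower (12.3%).

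In tendon at day 3, Timp1 and A2m were called higher and Timp3 and Timp4 lower than control in each arm, 4 of 6 members. With the bursa removed 63.3% of the 16289 features were called (30.9% higher and 32.4% lower), and with it intact 66% were (32.7% higher and 33.3% lower). At day 14, Timp1, Timp2, Serpine2 and A2m were called higher and Timp4 lower in each arm, 5 of 6 members. The background there was 65.5% with the bursa removed (33.3% higher and 32.2% lower) and 66.6% with it intact (34% higher and 32.6% lower). Between day 14 and day 3 tendon, 4 of 6 were called in each arm, Timp2, Timp3 and Serpine2 higher and Timp1 lower. With the bursa removed 45.3% of features were called (22.5% higher and 22.8% lower), and with it intact 43.4% were (21.5% higher and 21.9% lower). Called in either direction, the members' share in tendon against control was near the background at day 3. At day 14 it was 5 of 6, against 65.5% and 66.6% of features, and 4 of 6 were higher, against 33.3% and 34%. With only 6 members, chosen with their fold changes known, these shares are not read as a difference from the background. The members called in each comparison of injured tissue with control, in bursa and in tendon, include A2m, whose controls had no counts. The comparisons within a tissue share their control libraries, and those between days share the injured libraries of the comparisons with control.

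Removal of the bursa was compared with an intact bursa on each day, the comparison that bears on what the bursa does after a tendon injury. No member was called at day 3 or at day 14, and no feature of 16289 was called by edgeR on either day (0% called), with 1263 and 194 features at an unadjusted p under 0.05. DESeq2 called 7 features at day 3 and 0 at day 14, none of them a member. At day 3 the log2 difference, removed over intact, was 0.14 for Timp1 (95% interval -0.23 to 0.50), -0.18 for Timp2 (-0.43 to 0.07), 0.04 for Timp3 (-0.29 to 0.37) and -0.13 for Serpine2 (-0.41 to 0.14). The largest day 3 differences had the widest intervals. Timp4 differed by 0.68 (-0.12 to 1.48) and A2m by 0.67 (-0.03 to 1.38), with an adjusted p of 0.63 each. A2m averaged 8.90 ± 3.10 CPM with the bursa removed and 5.64 ± 2.47 CPM with it intact at day 3 (SD, n = 6 each), and 2 of 6 removed libraries lay above all intact ones. In every pair with the same replicate number the removed library was the higher. The labels do not tie such pairs to a rat, and the main fit did not use them.

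At day 14 the differences were 0.15 for Timp1 (-0.21 to 0.52), -0.14 for Timp2 (-0.38 to 0.11), -0.01 for Timp3 (-0.34 to 0.31) and 0.04 for Serpine2 (-0.24 to 0.31). Timp4 differed by 0.17 (-0.60 to 0.93) and A2m by -0.08 (-0.78 to 0.62). For Timp1, Timp2, Timp3 and Serpine2 the intervals on both days stayed within 0.52 on the log2 scale in either direction, while those of Timp4 and A2m were too wide to bound a change of that size. The change of the difference between the days was also not called for any member or feature (0 of 16289, with 242 at an unadjusted p under 0.05 by edgeR and 0 called by DESeq2). It ran from -0.75 ± 0.48 for A2m to 0.17 ± 0.19 for Serpine2.

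**Figure D3:**
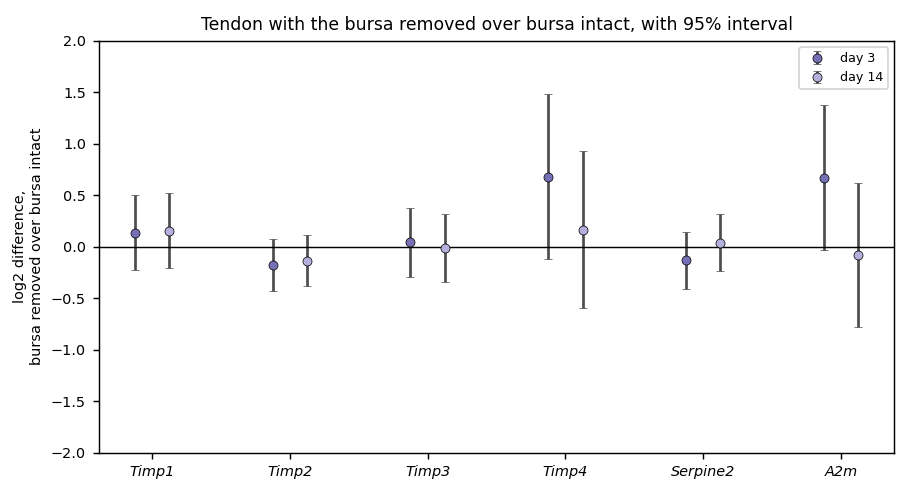
Log2 difference of each gene in tendon, bursa removed over bursa intact, with 95% intervals from edgeR, on day 3 and day 14 (n = 6 libraries per group). All 12 intervals include 0, and those of Timp4 and A2m are the widest.

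Uninjured bursa and uninjured tendon differed in 3 of the 5 members that could be tested, against 51.9% of 17086 features (29.6% higher and 22.3% lower in bursa). Timp1 was lower in control bursa than in control tendon, at 22.9 ± 13.9 CPM in control bursae and 48.0 ± 3.92 CPM in control tendons (SD, n = 5 each), a log2 difference of -1.06 ± 0.27 (adjusted p = 9.9e-04). Timp4 was higher in bursa, at 80.8 ± 23.3 CPM in control bursae and 32.6 ± 7.30 CPM in control tendons, a difference of 1.31 ± 0.35 (adjusted p = 0.0020). Serpine2 was lower in bursa, at 92.1 ± 24.9 CPM in control bursae and 168 ± 41.3 CPM in control tendons, a difference of -0.87 ± 0.16 (adjusted p = 1.1e-05). The groups did not overlap for Timp1 and Timp4, and 4 of 5 control bursae were below all control tendons for Serpine2. Timp2 (-0.48 ± 0.23, adjusted p = 0.085) and Timp3 (0.43 ± 0.20, adjusted p = 0.070) were not called. Without control bursae 1 and 2 the 3 called differences were -0.65, 1.03 and -0.71 and stayed called (adjusted p = 0.013, 0.026 and 3.2e-04), and Timp2 was -0.06. Timp2 passed without control bursa 4 (-0.72, adjusted p = 0.0098) or 5 (-0.64, adjusted p = 0.029), and Timp3 passed without control bursa 1, control tendon 2 or control tendon 3 (0.51 each, adjusted p = 0.036, 0.043 and 0.045).

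The response to tenotomy was compared between bursa and tendon with the bursa intact through the difference of their log2 fold changes, which uses the controls of both tissues. At day 3 it was called for 2 members, against 24.6% of features (9.92% higher and 14.7% lower). Timp4 fell less in bursa than in tendon, by a difference of 1.87 ± 0.50 (adjusted p = 0.0046), and Timp3 also fell less, by 0.76 ± 0.27 (adjusted p = 0.036). The Timp3 difference did not hold when any of 8 single libraries was left out (0.61 to 0.71, adjusted p = 0.061 to 0.092); the lowest came without day 3 bursa 5. For Timp1, Timp2 and Serpine2 the day 3 differences were -0.14 ± 0.36, 0.22 ± 0.32 and 0.06 ± 0.21. Without control bursae 1 and 2 that of Timp1 was -0.53 (adjusted p = 0.14).

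At day 14 the difference was called for 4 members, against 35.3% of features (15.7% higher and 19.6% lower). The fold change in bursa was below that in tendon for Timp2 (-1.40 ± 0.32, adjusted p = 7.0e-04), Timp1 (-0.98 ± 0.36, adjusted p = 0.030) and Serpine2 (-0.81 ± 0.21, adjusted p = 0.0026), and above it for Timp4 (2.15 ± 0.49, adjusted p = 7.0e-04). Timp3 was not called (-0.54 ± 0.27, adjusted p = 0.12). The Timp1 difference lost its call without control bursa 4 (-0.78), control bursa 5 (-0.74), day 14 bursa 5 (-0.91) or intact day 14 tendon 6 (-0.91), with an adjusted p of 0.089, 0.10, 0.052 and 0.053. Without control bursae 1 and 2 the 4 called differences were larger in size: -1.84 for Timp2, -1.42 for Timp1, -0.98 for Serpine2 and 2.42 for Timp4.

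The ratio of Timp1 to Timp3 counts within a library, which no scaling between libraries can alter, separated the day 3 libraries from the others within each tissue. It is read across groups only, since the transcripts' lengths were not used. On the log2 scale it averaged -4.62 ± 1.09 in control bursae, 0.34 ± 0.74 in day 3 bursae and -3.06 ± 0.39 in day 14 bursae (SD). In control tendons it averaged -2.85 ± 0.37. With the bursa removed it averaged 2.74 ± 0.73 at day 3 and -0.96 ± 0.30 at day 14, and with the bursa intact 2.65 ± 0.59 at day 3 and -1.11 ± 0.43 at day 14. Each day 3 library of either tissue was above every control and every day 14 library of the same tissue. At day 3 Timp1 already lay above and Timp3 below every control of the same tissue. The separation of day 3 libraries from controls by the ratio follows from those levels and is not separate support. Each day 14 tendon was above every control tendon, while the day 14 bursae, from -3.74 to -2.59, overlapped the control bursae, from -6.05 to -3.40.

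**Figure D4:**
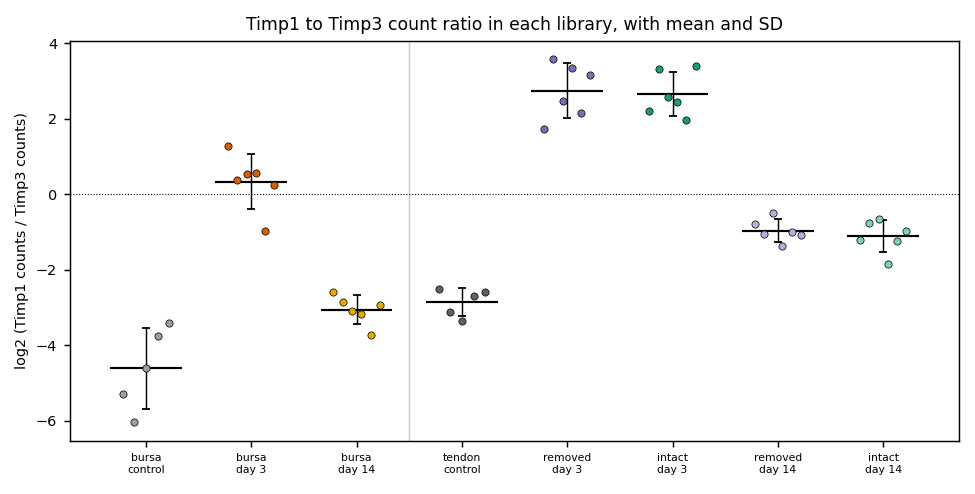
Log2 ratio of Timp1 to Timp3 counts in each library, with 1 point per library, a bar at the group mean and an error bar of 1 SD; the dotted line marks equal counts. Day 3 libraries sit highest in each tissue, tendon day 3 lies wholly above 0, and the tendon ratio stays above control at day 14.

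Across the 46 libraries the members fell into patterns that can be described by Pearson's r of log2(CPM + 0.5), given here with no test because the libraries share groups, tissues and depth. Timp1 ran opposite to Timp4 (r = -0.91) and Timp3 (r = -0.70) and with A2m (r = 0.86), Timp2 ran with Serpine2 (r = 0.70), and Timp3 with Serpine2 had r = -0.14. Among 8429 other symbols of at least 10 CPM, the levels most like Timp1 were those of Ncapg2 (r = 0.97), Mboat1 and Arpc3. Those most like Timp2 were Chpf (r = 0.98), Cask and Matn2, and those most like Timp3 were Cry2 (r = 0.95), Sema3b and Sparcl1. For Timp4 they were Sult1a1 (r = 0.98), Cavin2 and Lifr, for Serpine2 Ppp1r36 (r = 0.95), Enpp1 and Slc1a4, and for A2m Atxn10 (r = 0.92), Ykt6 and Cdk4. With 3 time points and 2 tissues, many genes share such a course.

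Other inhibitors of proteases were counted from a list of 40 symbols, of which 23 were tested in bursa and 25 in tendon. These counts and those of the lists that follow are to be read against the shares of all features given above, 22.3% higher and 24.2% lower in day 3 bursa, 9.44% and 7.02% in day 14 bursa, and between 30.9% and 34% in each direction in the 4 tendon comparisons. In bursa, 7 were higher and 4 lower at day 3 and 8 higher and 0 lower at day 14, with median log2 fold changes of 0.44 and 0.56 against -0.06 and -0.05 over all features. In tendon at day 3, 9 rose and 10 fell with the bursa removed and 10 rose and 10 fell with it intact, with medians of -0.10 and -0.22, against -0.02 and -0.01 over all features. At day 14, 7 rose and 9 fell with the bursa removed and 7 rose and 8 fell with it intact. Slpi, an inhibitor of neutrophil elastase, rose in all 6 comparisons. It was at 12.1 to 29.1 CPM in day 3 bursae against 1.08 to 2.49 CPM in control bursae, and at 5.65 to 28.2 CPM in day 3 tendons of both arms against at most 0.183 CPM in control tendons. Kng1, whose product kininogen inhibits cysteine proteases, was like A2m at 0 in all 10 controls. Unlike A2m it was also at 0 in all 12 day 14 tendons, after 0.272 to 2.27 CPM with the bursa removed and 0.366 to 2.12 CPM with it intact at day 3, and it reached 10.1 to 29.1 CPM in day 3 bursae. Wfdc1, a secreted protein with a whey acidic protein domain, followed the course of Timp2 in tendon, at 158 to 310.4 CPM in the 12 day 14 libraries and at most 28.8 CPM in the day 3 and control tendons.

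The proteases that these inhibitors act on, and their activators, were counted from a list of 45 symbols. In bursa 25 of 37 rose and 3 fell at day 3, and 15 rose and 0 fell at day 14, with medians of 0.84 and 0.68. In tendon at day 3, 28 of 38 rose and 3 fell with the bursa removed, and 29 rose and 4 fell with it intact. At day 14, 29 of 38 rose and 1 fell in each arm. The medians over the list were 1.30 at day 3 and 1.82 at day 14 with the bursa removed, and 1.53 and 1.67 with the bursa intact. Mmp13, an interstitial collagenase, was at 33.7 to 328 CPM in the 12 day 3 tendons, 14.1 to 42.8 CPM in the 12 day 14 tendons and at most 0.122 CPM in control tendons. Adam12 was at 149 to 274 CPM in day 14 tendons, against 1.40 to 5.17 CPM in controls. Mmp14, the membrane partner of Timp2, was at 1830 to 2574 CPM in day 14 tendons, 318 to 958 CPM in day 3 tendons and 51.9 to 80.8 CPM in control tendons. In bursa Mmp14 was at 401 to 731 CPM at day 3 and 351 to 745 CPM at day 14, against 49.2 to 231 CPM in controls.

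Receptors that bind or clear the inhibitor complexes were counted from a list of 14 symbols, 12 of them tested. In bursa 8 rose and 2 fell at day 3, and 2 rose and 1 fell at day 14. In tendon 7 rose and 2 fell in each arm at day 3, and 6 rose and 2 fell in each arm at day 14. With 3 of 12 called in day 14 bursa, against 16.5% of features, and 8 or 9 of 12 in tendon, against 63.3% to 66.6%, the counts there were near the background. Day 3 bursa was not as near to it, with 8 of 12 higher, against 22.3% of features, and 2 lower, against 24.2%. The difference of this list from the background was not tested. Plaur, the urokinase receptor, rose in day 3 bursa (1.27 ± 0.22, adjusted p = 2.8e-04). In tendon it rose at day 3 by 1.98 ± 0.17 with the bursa removed and 2.09 ± 0.17 with it intact, and at day 14 by 1.65 ± 0.17 and 1.49 ± 0.17. F2r, the thrombin receptor, rose in day 14 tendon by 1.57 ± 0.10 with the bursa removed and 1.61 ± 0.10 with the bursa intact. Of 13 tested cytokine genes of injury and the acute phase (16 listed), 8 rose and 2 fell in day 3 bursa, and 6 rose and 0 fell in day 14 bursa. In day 3 tendon 9 rose and 4 fell with the bursa removed, and 9 rose and 3 fell with it intact. In day 14 tendon 7 rose and 2 fell with the bursa removed, and 6 rose and 2 fell with it intact. Il6 was at 1.36 to 2.91 CPM in day 3 bursae and 1.64 to 10.3 CPM in day 3 tendons, against at most 0.215 CPM in control bursae and 0.173 CPM in control tendons. No gene of these 4 lists was called by edgeR between removed and intact bursa on either day.

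The same genes were read in the authors' deposited tables of DESeq2 results, where the members called at an adjusted p under 0.05 numbered 4 in day 3 bursa and 2 in day 14 bursa. The authors' deposited tables called 4 in each day 3 tendon comparison with control, 5 in each day 14 one, and 0 of 6 between removed and intact bursa at day 14. At day 3 the authors' deposited table called 0 of the 4 members that had an adjusted p in it, and gave none for Timp4 and A2m. The authors' deposited table gave A2m a log2 fold change there of -0.72, intact over removed, with an error of 0.18, that is, higher with the bursa removed. Between the days, the authors' deposited tables called 6 in bursa, 5 in tendon with the bursa intact and 4 with it removed. Over 55 values with A2m left out, the log2 fold changes computed here differed from the authors' deposited table by a median of 0.012 and at most 0.18.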

How the data were processed

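Poly-A RNA of 46 libraries was sequenced from TruSeq preparations, per the labels' protocols. Reads were converted with bcl2fastq 2.19 and quantified with kallisto 0.44.0, per the submitters' processing notes against a transcriptome whose build the labels leave out. The authors deposited a table of kallisto estimated counts per transcript, which was rounded to whole numbers here. The authors also deposited 11 DESeq2 tables with a mean signal per gene (counts divided by size factors), log2 fold changes and their errors, Wald scores, and p-values. Deposited fold changes run second-named over first-named group.

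The count table names transcripts and the gene tables name symbols. They were paired by value, taking 1 or 2 transcripts whose scaled means matched a symbol's mean in the 11 tables, within 0.5 normalized counts or 0.2% for 1 transcript and up to 5% for the loosest pairs. This named 14283 of 23747 symbols and 91.1% of counts; 5 pairs were made at values shifted by 7 percent. Each Timp and A2m matched 1 transcript and Serpine2 matched 2, so other isoforms are not counted.

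Tests used edgeR 4.0.16 in R 4.3.3 (quasi-likelihood, TMM scaling, filter on low counts) on all named and unnamed features, with 17 bursa libraries, 29 tendon libraries or all 46 in 1 fit, and Benjamini-Hochberg adjustment over the fit. DESeq2 1.42.0 was an alternative. Levels are CPM after TMM scaling over all 46 libraries, and are not compared between genes. The fits were also run on simulated counts with planted changes, and the outcome is not given here. The alternatives were another scaling, no filter, a replicate block, fits of only the groups compared, muscle level as a covariate, control bursae 1 and 2 left out, and each library left out. Members and lists were chosen with earlier results of these data known. All 6 members are named throughout; of each list, named genes are among the 3 called genes with the largest fold change in a comparison, apart from levels of a listed gene in further comparisons, which were added after its values were seen, and for each member the 3 symbols most like it.

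Replicate numbers are shared between groups. Same-numbered libraries deviated together (r over 0.1 in all 6 pairs) between removed and intact tendon at day 14 (r = 0.14 to 0.41) and between day 3 bursa and intact day 3 tendon (0.12 to 0.23). They did so in 5 of 6 pairs between removed and intact tendon at day 3, in 4 of 6 between bursa and intact tendon at day 14, and in 2 of 5 between the controls.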

Additional observations from a re-analysis of the deposited data

Results flagged for a closer look

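In a group of 5 or 6 libraries, the lowest or highest library was looked at when its gap to the nearest other library was a large share of the group's range by Dixon's 95% criterion. Of 46 combinations of gene and group, 2 passed, where chance at about 1 in 20 groups gives 2.3. Both were Timp1 in injured bursa, and in both the lowest library carried the replicate number 5. At day 3 it was at 110.3 CPM, in a group whose median was 184 CPM, and at day 14 it was at 33.0 CPM, in a group whose median was 46.4 CPM.

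The response to tenotomy differed between bursa and tendon with the bursa intact for several genes, by edgeR's test of the difference of the log2 fold changes (bursa minus tendon). At day 3 these were Timp3 (0.76, adjusted p = 0.036) and Timp4 (1.87, adjusted p = 0.0046). At day 14 they were Timp1 (-0.98, adjusted p = 0.030), Timp2 (-1.40, adjusted p = 7.0e-04), Timp4 (2.15, adjusted p = 7.0e-04) and Serpine2 (-0.81, adjusted p = 0.0026).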

How the results depend on the processing

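Of the values of single genes under all alternatives, 1635 kept their side of the threshold, and their direction where called. A further 28 gained a call, 23 lost one and 0 changed sign while called. The direction of values that stayed uncalled was not compared, and some changed sign. Timp2 in day 3 bursa, for example, ran from -0.12 to 0.60. For day 14 bursa against control, where 1 member was called, 2 were called with only the groups compared in the fit (Timp4 added, adjusted p = 0.043), 2 without control bursae 1 and 2 (Serpine2 added) and 4 with DESeq2 (Timp1, Timp2 and Timp4 added, adjusted p = 0.020, 0.023 and 0.037). For the difference of the day 3 responses between tissues, where 2 were called, 1 was called with no filter on low counts and 1 with only the groups compared, since Timp3 then had an adjusted p of 0.050 and 0.053. With only the groups compared, the day 14 difference for Timp1 was lost (adjusted p = 0.072) and the rise of Timp2 between day 3 and day 14 bursa was called (adjusted p = 0.0090). With DESeq2, Serpine2 in day 3 bursa (0.35, adjusted p = 0.045), Timp4 between intact day 14 and day 3 tendon (0.89, adjusted p = 0.041) and Timp2 between the controls (-0.52, adjusted p = 0.047) were called. With only the groups compared, the same Timp4 difference was called (0.88, adjusted p = 0.012).

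With each library left out in turn, the number of members called ran between 4 and 5 in day 3 bursa, 1 and 3 in day 14 bursa (3 without control bursa 4 or 5, when Timp1 and Timp2 joined), 4 and 5 in intact day 3 tendon, 3 and 5 between intact day 14 and day 3 tendon, 4 and 5 for the same with the bursa removed, 3 and 4 between the controls, and 1 and 2 at day 3 and 3 and 4 at day 14 for the difference between tissues. In the other comparisons the number did not change. Serpine2 in intact day 3 tendon was called without control tendon 2 (0.34, adjusted p = 0.035) or intact day 3 tendon 1 (0.33, adjusted p = 0.037). With the replicate block, 4 members were called between the controls, against 3 without it (Timp2, -0.54, adjusted p = 0.0497), and 5 between intact day 14 and day 3 tendon, against 4 (Timp4, 0.90, adjusted p = 0.043); the block changed no other call of a member. A2m at day 3 was higher in the removed tendon of 6 of 6 same-numbered pairs, and with the block its difference was 0.67 (adjusted p = 0.60). The block tied each replicate number across controls and both days, so it was not a test of these same-day pairs. Depth limits A2m most: its controls at 0 give only lower bounds, and it holds as few as 9 counts in an injured library. The names rest on values matched between tables, and libraries are not tied to rats.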
